A study of Mus musculus with 15 samples.

Results

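The aminoacyl-tRNA synthetases measured here are the enzymes that load amino acids onto transfer RNAs. Their genes were taken by name: every probe set annotated to 1 gene whose symbol is a single letter followed by ars, with or without a closing 1 or 2, plus Eprs, Ears2, Farsa and Farsb. The rule found 35 genes among the 18193 gene symbols on the array. Symbols ending in 2 were counted as mitochondrial (16 genes) and the others as cytosolic (19 genes). Each gene stood for its probe set with the highest mean over the 15 arrays. All 19 cytosolic genes and 12 of the 16 mitochondrial genes reached a log2 value of 4, the level treated as close to background, on at least 3 arrays and were tested. Mars2, Pars2, Sars2 and Wars2 did not reach it and appear in no count of calls.

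The samples were livers of mice killed at an age of 15 weeks. Untreated wild-type animals of the strain C3H/HeOuJ formed 1 group (n = 3). Treated wild-type animals of that strain (n = 4) were injected with DEN (diethylnitrosamine, a liver carcinogen, 100 mg/kg) at 12 weeks of age and with CCl4 (carbon tetrachloride, a liver toxin, 0.5 ml/kg) once at 13 weeks and once at 15 weeks, and were killed 48 h after the last injection. Treated mutant animals (n = 4) received the same injections but were C3H/HeJ, a strain carrying a mutated Tlr4, the receptor for bacterial lipopolysaccharide, named in the labels as Tlr4P712H. The antibiotic group (n = 4) was C3H/HeOuJ, was injected in the same way according to the treatment protocol, and before that drank ampicillin, neomycin and metronidazole (1 g/l each) with vancomycin (500 mg/l) for 2 weeks from week 10. Its own label repeats no DEN dose. The animals were labelled male, except that mutant replicate 1 carries no sex. One description shared by all samples names a liver resection and other ages, which contradicts the remaining labels and was not used. The mutant differs from the wild type by its strain as well as by Tlr4, so the mutation and the strain cannot be told apart. Nothing says that each sample came from a separate animal, so the p-values measure the spread between these samples, and the small number of arrays limits the precision.

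Each synthetase recognises 1 amino acid and its tRNAs, and the enzymes fall into class I and class II by the fold of their catalytic domain. Cytosolic and mitochondrial protein synthesis mostly use separate enzymes, all made from nuclear genes. Gars and Kars are exceptions, since each gene supplies both compartments, and the glutaminyl enzyme Qars serves the cytosol while mitochondria make glutaminyl-tRNA in a detour through glutamyl-tRNA. Several cytosolic enzymes (Eprs, Iars, Lars, Mars1, Qars, Rars and Kars) sit together in the multisynthetase complex, held by the scaffold proteins Aimp1, Aimp2 and Eef1e1. When amino acids run short or the endoplasmic reticulum is stressed, kinases of the translation factor eIF2 raise the level of the transcription factor ATF4, and many cytosolic synthetase genes are known ATF4 targets. Wars, the tryptophanyl enzyme, is known in addition for its induction by interferon-gamma.

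Promoter sequence shows where letters known from ATF4 target genes lie in these genes. RefSeq windows of 300 bases (250 before to 50 after the start of transcription, assembly GRCm38.p6) were matched for 26 of the 35 genes, 12 cytosolic and 14 mitochondrial. The composite element bound by ATF4 and C/EBP proteins was searched as TGATGNAA on both strands. It was found in 5 of 12 cytosolic windows (41.7%) and in 0 of 14 mitochondrial ones, against 4.06% of 27025 windows over all genes. The cytosolic genes were Aars, Gars, Iars, Tars and Yars. Of their 6 matches (Aars has a pair), 0 overlapped either of the other motifs searched. Those others were the E-box CACGTG (4 of 12 cytosolic, 1 of 14 mitochondrial, 7.24% of all windows) and the box CCAAT (7 of 12, 6 of 14 and 37.9%), both read on both strands. A match is a description of the letters and not evidence of binding. The stretches before the start that hold a match are printed on the strand of the gene, with the matched letters in capitals, which read as the reverse complement of the searched motif.
Gars, bases -50 to -3 from the start, chr6:55037951-55037998, plus strand: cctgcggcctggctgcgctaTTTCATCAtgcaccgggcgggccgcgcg
Aars, bases -132 to -85, chr8:111033710-111033757, plus strand: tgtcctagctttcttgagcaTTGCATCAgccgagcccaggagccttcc
Tars, bases -35 to -1, chr15:11399659-11399693, minus strand: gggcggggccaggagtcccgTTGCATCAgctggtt
These 3 genes did not move alike. Gars rose after treatment, Aars was higher in the mutant than in the treated wild type, and Tars was called in none of the 3 main comparisons, with the values given below for each.

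Values are log2 expression summaries (GCRMA, a method that corrects each probe for background), and a difference of 1 is a 2-fold change. Levels of different probe sets are not comparable with one another. Between 34.6% and 36.7% of probe sets per array reached 4, and arrays of 1 group correlated at 0.977 to 0.993 over the 9482 genes tested. Hepatocyte markers were at a mean level of 14.2 to 14.5 on all arrays. In treated against untreated wild type all 5 were lower in mean (-0.35 to -0.08), and 1 was called lower. In the mutant and in the antibiotic group 0 of 5 were called against treated wild type. Markers of several other cell types moved more between the groups. The 7 macrophage markers averaged 4.74 to 6.40 in untreated, 8.10 to 8.98 in treated wild-type, 4.73 to 5.03 in mutant and 6.58 to 7.64 in antibiotic livers. Over 6 stellate and matrix markers the ranges were 5.85 to 6.45, 8.98 to 9.16, 7.19 to 7.78 and 7.95 to 8.73 in the same order. The 3 markers of dividing cells averaged 2.43 to 2.71, 10.33 to 10.99, 8.14 to 8.92 and 7.84 to 10.09. In treated against untreated wild type 5 of 7 macrophage, 5 of 5 tested stellate and 3 of 3 dividing-cell markers were called higher. In the mutant against treated wild type 6 of 7, 5 of 5 and 3 of 3 were called lower, and in the antibiotic group 6 of 7, 4 of 5 and 3 of 3. Of 2 tested neutrophil markers, 2 were higher with treatment in wild type, and 2 were lower in the mutant and in the antibiotic group. Of 4 tested endothelial markers 1 was higher with treatment, 4 were lower in the mutant and 0 were called in the antibiotic group. Of 3 tested bile duct markers 2 were higher with treatment and 1 in the mutant. Alas2, of red cell precursors, and Cela1, of the pancreas, were lower in treated than in untreated wild type (-2.69 and -2.44). No marker of T, B or fat cells reached the level for testing. The part of these cells in the synthetase results was not tested, and in bulk liver more cells of a type and more RNA per cell cannot be told apart.

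The first comparison, treated against untreated wild type, asks what the 2 injected agents changed. Cytosolic synthetase genes mostly rose: 11 of 19 were called higher, 0 were called lower and 8 were not called. A call is a Benjamini-Hochberg adjusted p under 0.05 in a limma fit over all 9482 genes tested. Across all genes 62.6% were called, 35.9% of them higher and 26.7% lower as shares of the genes tested, beside 57.9% of cytosolic synthetases called higher. The median difference was 0.58 for the cytosolic genes and 0.10 for all genes. Of 12 mitochondrial synthetases 2 were higher, 5 lower and 5 not called, with a median of -0.17 (0.07 when genes had to reach 6). These counts moved with the scale: with each array centred on its own median, the median of all genes shifted from 0.10 to -0.12, and the cytosolic genes had 7 higher and 2 lower calls (median 0.36), the mitochondrial genes 1 and 6 (median -0.39), against 27.4% higher and 37.1% lower over all genes. Of all genes called, 57.4% were higher as deposited, 42.4% with arrays centred and 49.0% after quantile normalization. Treated and untreated arrays were fully apart for 11 cytosolic genes that were higher and 1 that was lower, and for 1 and 5 mitochondrial genes, against 37.5% and 28.9% of all genes. Mitochondrial lower calls were 2 without untreated replicate 1, and 3 without untreated replicate 3 or treated replicate 2.

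Vars, the valyl enzyme, was low in untreated livers. It read 3.65, 3.05 and 3.22 on the untreated arrays, 5.15, 4.76, 5.04 and 5.03 in treated wild type, 5.75, 5.37, 5.03 and 5.03 in the mutant, and 5.42, 5.28, 5.43 and 5.21 in the antibiotic group. All 12 treated arrays lay above the untreated ones. The limma difference between treated and untreated wild type was 1.69 ± 0.18 (SE, adjusted p = 1.62e-06). Because every untreated array was below 4, the rise is given as at least 1.99-fold, counted from that floor. Farsa, the catalytic subunit of phenylalanyl-tRNA synthetase, read 4.58, 4.49 and 4.60 untreated, 6.17, 5.61, 5.65 and 5.95 in treated wild type, 6.47, 6.12, 6.45 and 6.59 in the mutant, and 6.38, 6.10, 6.82 and 6.36 in the antibiotic group. Untreated and treated livers were again apart, by 1.29 ± 0.17 in wild type (adjusted p = 1.65e-05). Its partner Farsb, the other subunit of the same enzyme, read 10.04, 9.51 and 9.24 untreated against 10.31, 10.22, 9.89 and 10.30 in treated wild type. These groups overlapped at 1 untreated array, and the difference of 0.58 ± 0.22 (adjusted p = 0.0346) was not called in 5 of 7 fits that left out an array (0.40 without untreated replicate 3). With arrays centred it was not called either (0.36, adjusted p = 0.171). Both other kept probe sets of Farsb were called higher, at 0.72 ± 0.19 and 0.72 ± 0.22.

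Wars read 3.93, 3.65 and 3.54 on the untreated arrays, 5.25, 4.89, 4.77 and 4.96 in treated wild type, 4.77, 4.57, 5.12 and 5.10 in the mutant, and 4.64, 5.14, 5.62 and 5.15 in the antibiotic group. Every treated array was above every untreated one. The difference in wild type was 1.26 ± 0.21 (adjusted p = 0.0001), at least 1.95-fold from the floor of 4. Beside it, of 10 tested genes of the interferon-gamma response, 5 were higher and 1 lower in treated wild type (Gbp2, a guanylate-binding protein, 2.60 ± 0.54 higher). Over all genes 35.9% were called higher and 26.7% lower. In the mutant 4 of these 10 were lower and 0 higher than in treated wild type, Gbp2 by -1.64 ± 0.50, while Wars differed by -0.08 ± 0.19 and was not called (95% interval -0.48 to 0.33). The shares of all genes there were 17.6% lower and 13.2% higher. A second kept probe set of Wars gave 0.29 ± 0.24 in the mutant and was not called either.

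Hars, the histidyl enzyme, read 11.13, 10.92 and 10.71 untreated and 12.15, 12.20, 11.83 and 12.09 in treated wild type. The groups were apart by 1.15 ± 0.15 (adjusted p = 9.76e-06), and a second probe set of Hars gave 1.38 ± 0.18. Kars, the lysyl enzyme of both compartments, read 8.16, 8.10 and 8.20 untreated against 9.35, 9.25, 8.70 and 9.17 in treated wild type. It rose by 0.96 ± 0.17 (adjusted p = 0.000158), with treated replicate 3 nearest to the untreated arrays. Gars, the glycyl enzyme of both compartments, read 9.34, 9.35 and 9.25 untreated against 10.47, 10.33, 9.97 and 10.29 in treated wild type. The groups did not overlap and differed by 0.95 ± 0.12 (adjusted p = 1.15e-05). Lars, the leucyl enzyme of the complex, which is also known as a leucine sensor, read 9.03, 9.24 and 9.10 untreated against 9.98, 9.97, 9.58 and 9.80 in treated wild type. It rose by 0.71 ± 0.13 (adjusted p = 0.000272), again with no overlap. Rars, the arginyl enzyme, read 9.06, 8.94 and 8.79 untreated and 9.87, 9.63, 9.21 and 9.57 in treated wild type. Its rise was 0.64 ± 0.19 (adjusted p = 0.00919), with treated replicate 3 at 9.21 close to the highest untreated array at 9.06. Rars was not called with the arrays centred (0.42, adjusted p = 0.0644), and neither was Iars, the isoleucyl enzyme (0.54 ± 0.16 as deposited, 0.32 with adjusted p = 0.0924 centred). Eprs, which carries the glutamyl and prolyl activities in 1 protein, had the smallest called rise at 0.26 ± 0.10 (adjusted p = 0.0368). It was not called with arrays centred (0.04) or in 5 of 7 fits without an array.

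**Figure D1:**
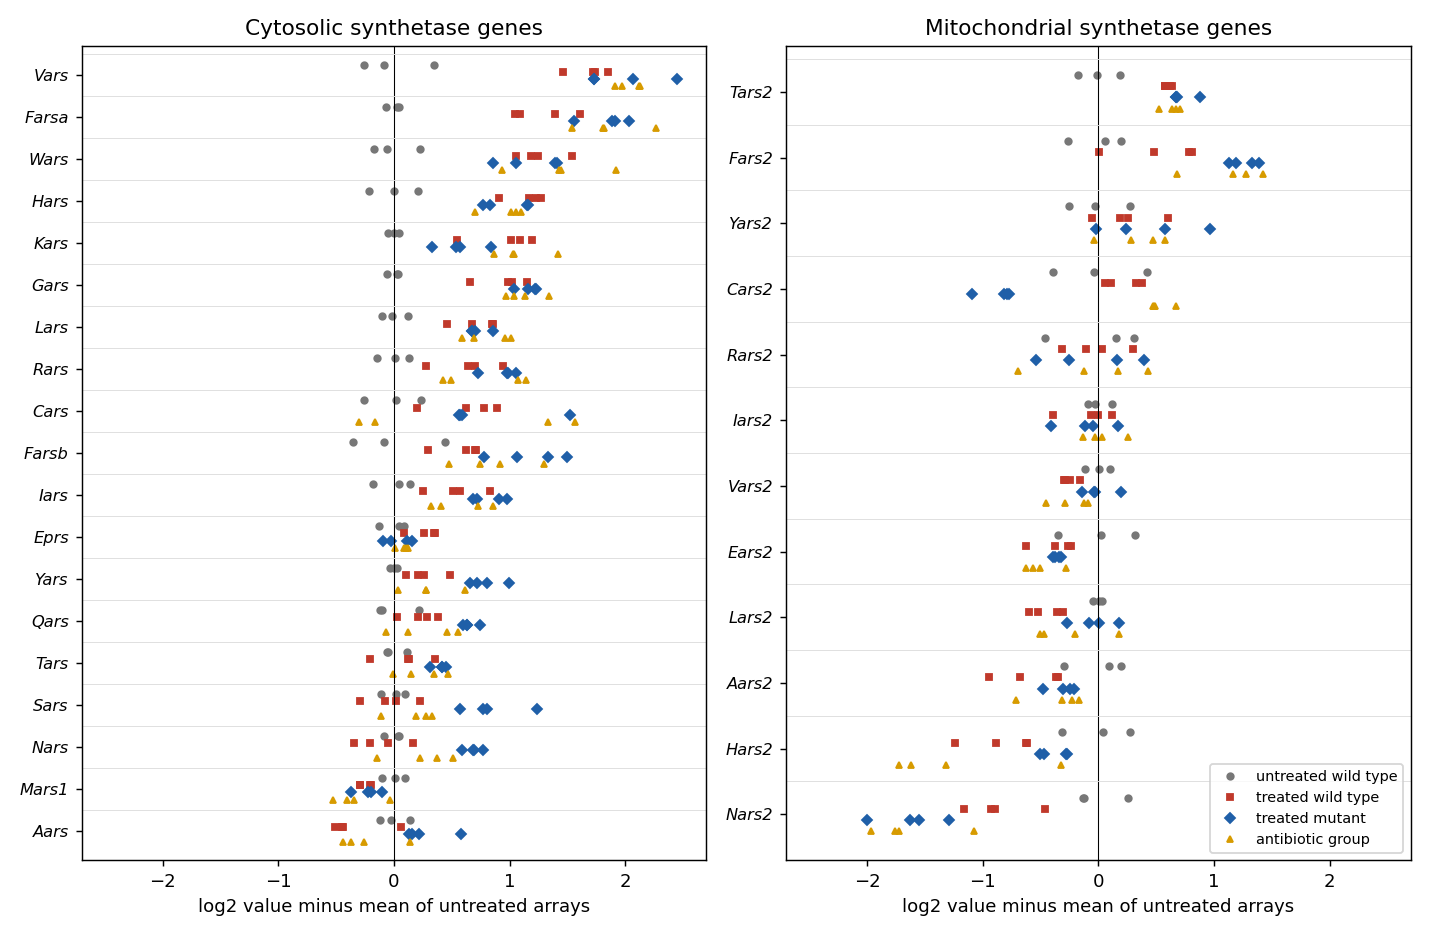
Log2 value on each array minus the mean of the 3 untreated arrays, for 19 cytosolic (left) and 12 mitochondrial (right) synthetase genes, with 1 symbol per array and group. Vars, Farsa, Wars, Hars, Kars, Gars, Lars and Rars lie to the right of the untreated arrays in all 3 treated groups, Nars2 lies to the left in all 3, and Cars2 is low in the mutant.

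The 8 cytosolic genes not called in treated wild type were Cars, Yars, Qars, Tars, Sars, Nars, Mars1 and Aars. Their differences ran from 0.62 ± 0.41 for Cars, the cysteinyl enzyme, to -0.33 ± 0.17 for Aars, the alanyl enzyme. The other kept probe set of Aars was called lower, at -0.61 ± 0.25 (adjusted p = 0.0446). Qars cannot be given a direction: its 3 kept probe sets gave 0.23 ± 0.15 (the one used), 0.81 ± 0.14 (called higher) and -0.62 ± 0.19 (called lower). Nars, the asparaginyl enzyme, also differed between probe sets. The one used gave -0.11 ± 0.15, and the other was called higher at 0.59 ± 0.15 (adjusted p = 0.00356). Qars was the 1 gene of 13 with several kept probe sets whose probe sets were called both ways.

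Groupings made from textbook features gave these counts, to be read beside 35.9% of all genes called higher and 26.7% lower. Of 7 members of the multisynthetase complex 5 were higher, and of the 12 other cytosolic genes 6. Among 13 genes linked to ATF4 by general knowledge 6 were higher (median 0.26), and among the 6 others 5 (median 0.80). Class I had 6 of 10 and class II 5 of 9. None of these differences between groupings was tested. Among 8 scaffold and editing genes 4 were higher and 1 lower. Aimp2, the central scaffold, rose by 1.53 ± 0.21 (adjusted p = 1.62e-05), and Eef1e1 by 1.02 ± 0.24 (adjusted p = 0.00199). Dtd2, which clears wrongly charged tRNAs, fell by 1.12 ± 0.19 on the log2 scale (adjusted p = 0.000161).

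Of the mitochondrial enzymes, Nars2 fell the most. This asparaginyl enzyme read 7.91, 7.92 and 8.30 on the untreated arrays, 7.58, 6.88, 7.12 and 7.15 in treated wild type, 6.04, 6.41, 6.75 and 6.49 in the mutant, and 6.32, 6.97, 6.29 and 6.08 in the antibiotic group. Each treated array lay below the untreated ones, and the difference in wild type was -0.86 ± 0.22 (adjusted p = 0.00359). Hars2, the histidyl enzyme, read 7.64, 7.41 and 7.06 untreated, 6.75, 6.49, 6.76 and 6.13 in treated wild type, 6.90, 7.10, 6.87 and 7.09 in the mutant, and 7.05, 5.75, 5.65 and 6.06 in the antibiotic group. Treated and untreated wild type did not overlap (-0.84 ± 0.27, adjusted p = 0.0153). The fall was not called without untreated replicate 1 (-0.70, adjusted p = 0.0689), and a second probe set of Hars2 gave -0.62 ± 0.15 (adjusted p = 0.00251). Aars2, the alanyl enzyme, read 4.72, 5.11 and 5.21 untreated and 4.65, 4.07, 4.67 and 4.34 in treated wild type. These values are close to background and differed by -0.58 ± 0.17 (adjusted p = 0.00919) with no overlap. Lars2, the leucyl enzyme, read 7.36, 7.28 and 7.33 untreated against 6.97, 6.81, 7.03 and 6.73 in treated wild type. The groups were apart by -0.44 ± 0.16 (adjusted p = 0.0234), and the call was lost in 4 of 7 fits without an array. Ears2, the glutamyl enzyme, fell by 0.37 ± 0.15 on the log2 scale (adjusted p = 0.0389), was also lost in 4 of 7 (-0.21 without untreated replicate 3), and its groups overlapped.

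Tars2, the threonyl enzyme, rose instead. It read 6.89, 7.10 and 6.73 untreated, 7.54, 7.48, 7.48 and 7.53 in treated wild type, 7.78, 7.58, 7.58 and 7.58 in the mutant, and 7.54, 7.61, 7.58 and 7.43 in the antibiotic group. The treated arrays of the 3 groups were all above the untreated ones, and the wild-type difference was 0.60 ± 0.10 (adjusted p = 0.000134). Fars2, the phenylalanyl enzyme, read 7.34, 7.66 and 7.80 untreated, 8.42, 7.61, 8.08 and 8.38 in treated wild type, 8.99, 8.73, 8.93 and 8.79 in the mutant, and 8.88, 8.28, 8.76 and 9.02 in the antibiotic group. Treated wild-type replicate 2 fell among the untreated arrays, and the difference of 0.52 ± 0.20 (adjusted p = 0.0368) was not called with arrays centred (0.30) or in 5 of 7 fits without an array. The second probe set of Fars2 gave 0.21 ± 0.26 and was not called (adjusted p = 0.511). Iars2, Rars2, Vars2 and Yars2 were called in none of the 3 main comparisons.

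**Figure D2:**
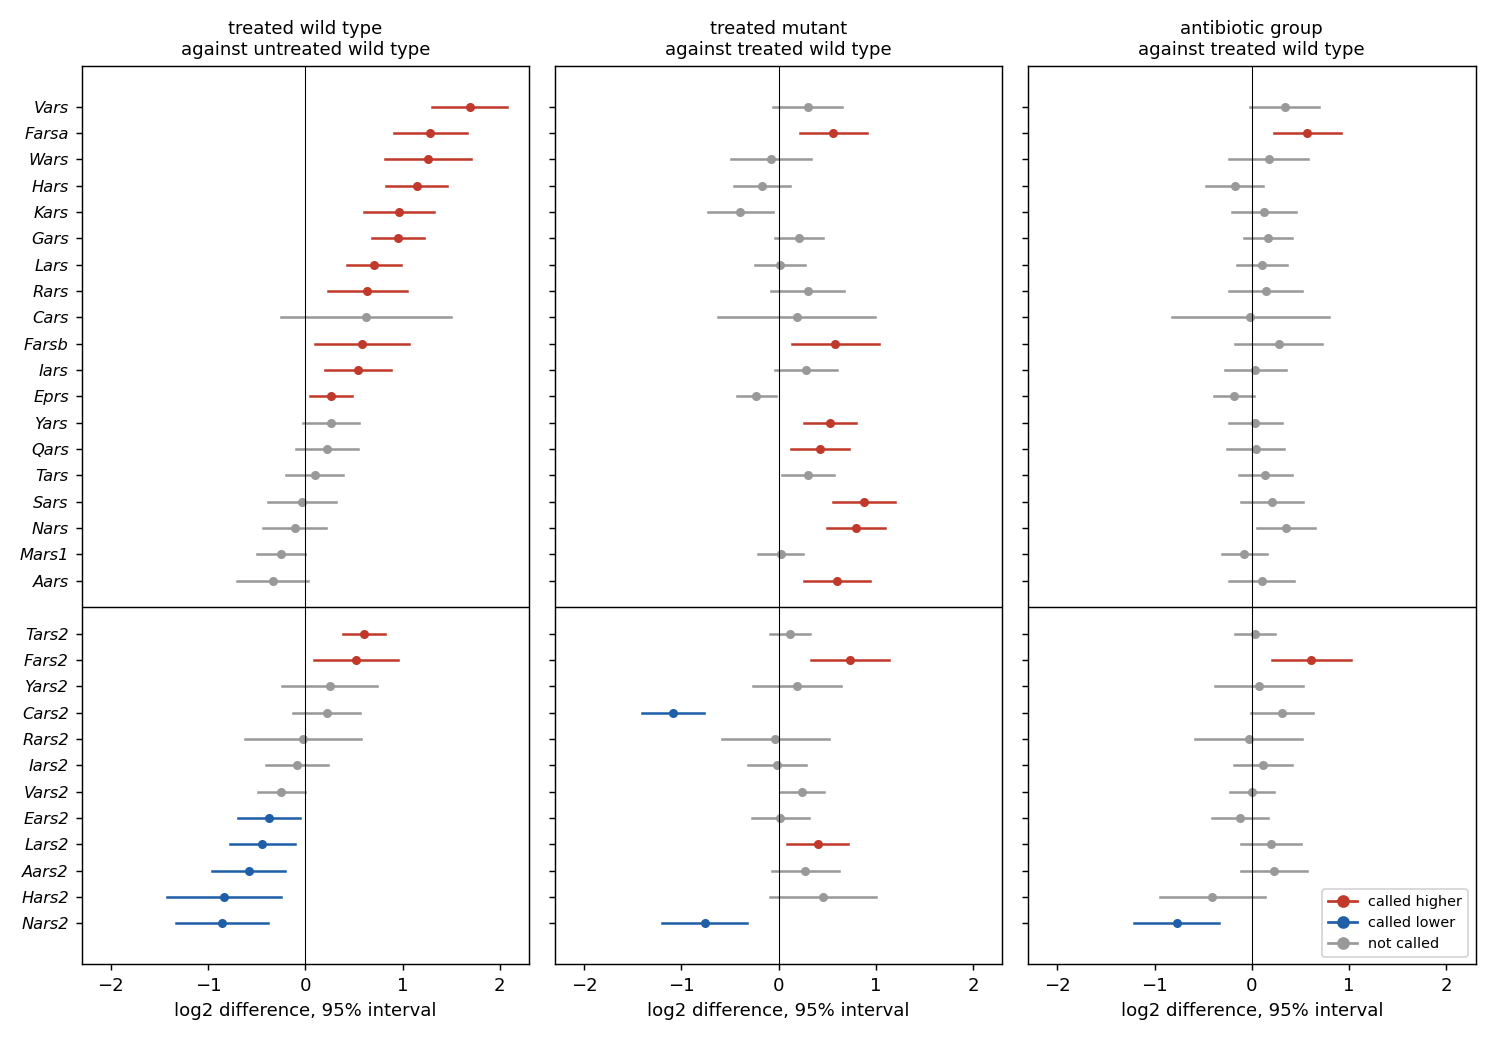
Log2 difference with its 95% interval from limma for each synthetase gene, cytosolic above and mitochondrial below the line, in the 3 main comparisons; red marks genes called higher, blue genes called lower and grey genes not called. In treated against untreated wild type 11 cytosolic genes are higher, in the mutant 7 are higher than in treated wild type, and in the antibiotic group 3 genes of both kinds are called.

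The machinery around the mitochondrial enzymes moved in both directions after treatment, and the counts of these lists stand beside 35.9% of all genes called higher and 26.7% lower. Of 14 mitochondrial translation factors 3 were higher and 3 lower. Gatb and Qrsl1 belong to the amidotransferase that makes mitochondrial glutaminyl-tRNA. Gatb fell by 2.06 ± 0.20 on the log2 scale (adjusted p = 6.23e-07) and Qrsl1 rose by 1.32 ± 0.24 (adjusted p = 0.000248), while Gatc differed by -0.22 and was not called. Mitochondrial ribosomal proteins had 33 of 76 higher and 5 lower, with a median of 0.26. Among 32 genes of tRNA maturation, modification and export 12 were higher and 5 lower. Rpp30, a subunit of ribonuclease P, rose by 1.59 ± 0.20, and Elac1, a nuclease for tRNA ends, fell by 1.93 ± 0.13 on the log2 scale. Of 6 cytosolic elongation factors 3 were higher and 1 lower, namely Eef1d (1.05 ± 0.14), Eef1b2 (1.04 ± 0.09) and Eif5a (0.49) against Eef2k (-1.07 ± 0.25), the kinase that inhibits eEF2.

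The cytosolic and the mitochondrial enzyme for the same amino acid were set side by side in 13 pairs, as the log2 ratio of the 2 genes on each array. The ratio cancels any scaling of a whole array. In treated against untreated wild type the ratio was higher in 12 of 13 pairs, Tars over Tars2 being the exception, and 7 pairs had ratios that did not overlap between the groups. Farsa and Farsb share Fars2 as their partner. The ratio of Hars to Hars2, which are neighbouring genes, was 1.98 higher and that of Lars to Lars2 1.15 higher. The ratio of Vars to Vars2 is given no size here, since Vars was under 4 on all untreated arrays. The exact two-sided permutation test used here doubles the p of 1 direction. With 4 against 3 arrays it cannot give less than 0.0571, the value for the 7 pairs. None passed after Benjamini-Hochberg adjustment over the 13 pairs (0.106). The same ratios in the mutant against the treated wild type did not overlap for Nars over Nars2 (1.55 higher) and Cars over Cars2 (1.27 higher), both at the smallest exact p of 0.0286 (0.186 adjusted). At its other kept probe set Nars was 0.14 ± 0.14 higher in the mutant and was not called. In the antibiotic group 1 pair did not overlap, Vars over Vars2 (0.33 higher, exact p = 0.0286, 0.371 adjusted).

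**Figure D3:**
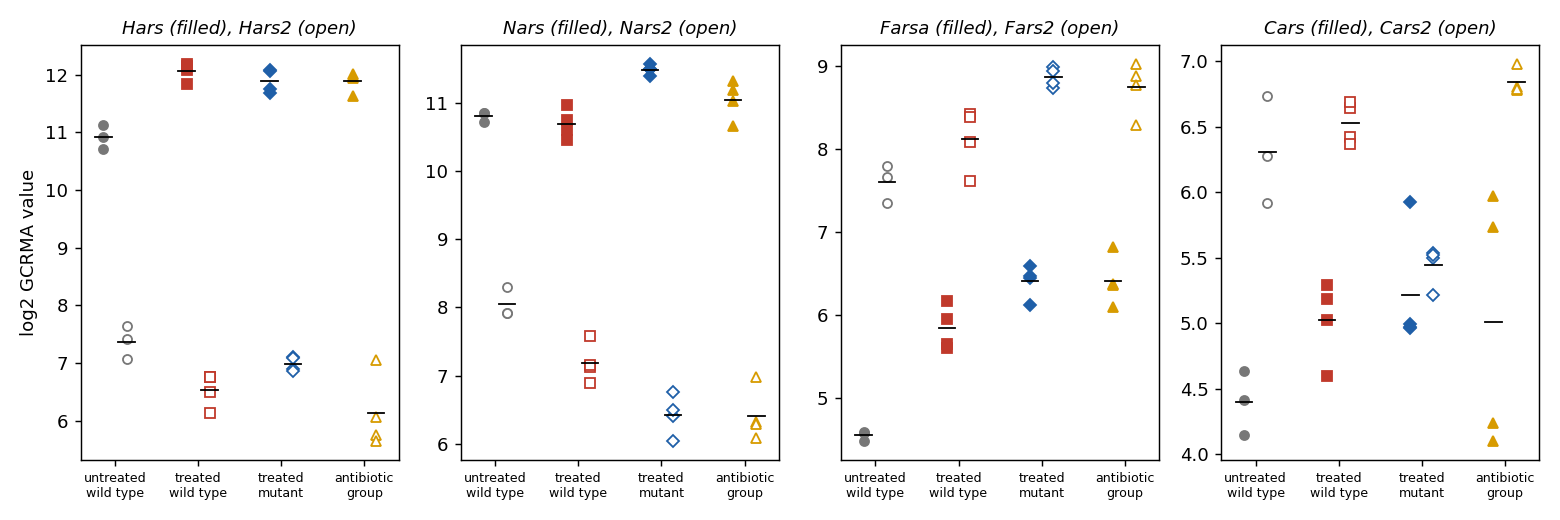
Log2 GCRMA value on each array for 4 pairs of cytosolic (filled) and mitochondrial (open) genes by group, with black bars at group means; heights of the 2 genes of a panel are not comparable, only their movement between groups. Hars rises and Hars2 falls after treatment, and Farsa and Fars2 both rise. In the mutant Nars rises at the probe set drawn while Nars2 falls further, and Cars2 is low.

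The second comparison, treated mutant against treated wild type, asks what differed in livers with the mutated Tlr4. Cytosolic synthetases were called higher in 7 of 19 cases (36.8%) and lower in 0. Over all genes 30.8% were called, 13.2% higher and 17.6% lower. The cytosolic median was 0.30 and that of all genes 0.02. Of the 7 genes, Aars, Nars, Qars, Sars and Yars had not been called in treated against untreated wild type, and Farsa and Farsb had risen there. Both comparisons use the treated wild-type arrays, so a low value there raises the second and lowers the first. Mitochondrial genes had 2 calls in each direction and a median of 0.16. The arrays did not overlap for 6 cytosolic genes that were higher and 0 that were lower, and for 5 and 2 mitochondrial genes, against 13.5% and 17.6% of all genes. Without treated wild-type replicate 3, 2 cytosolic genes were called lower.

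Sars, the seryl enzyme, differed the most among the cytosolic genes. It read 9.14, 9.06 and 8.93 in untreated wild type, 9.27, 9.06, 8.75 and 8.96 in treated wild type, 10.28, 9.84, 9.62 and 9.82 in the mutant, and 9.38, 8.93, 9.32 and 9.24 in the antibiotic group. The 4 mutant arrays were above all 11 wild-type arrays. The mutant exceeded treated wild type by 0.88 ± 0.15 (adjusted p = 0.00059), and the second probe set gave 1.21 ± 0.24. Nars read 10.84, 10.71 and 10.85 untreated, 10.97, 10.75, 10.46 and 10.59 in treated wild type, 11.49, 11.58, 11.49 and 11.39 in the mutant, and 11.18, 10.66, 11.32 and 11.03 in the antibiotic group. The mutant arrays were again the highest, by 0.79 ± 0.14 (adjusted p = 0.000711). The other Nars probe set did not show it (0.14 ± 0.14, adjusted p = 0.505).

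Aars read 10.85, 10.69 and 10.59 untreated, 10.77, 10.26, 10.27 and 10.20 in treated wild type, 11.29, 10.93, 10.84 and 10.86 in the mutant, and 10.85, 10.27, 10.45 and 10.34 in the antibiotic group. Replicate 1 of treated wild type stood above its group, yet below every mutant array, and the difference was 0.60 ± 0.16 (adjusted p = 0.00983). Yars, the tyrosyl enzyme, read 4.17, 4.20 and 4.13 untreated, 4.65, 4.42, 4.37 and 4.27 in treated wild type, 5.16, 4.97, 4.83 and 4.89 in the mutant, and 4.44, 4.20, 4.78 and 4.44 in the antibiotic group. Its values were near background, with the mutant arrays above all others by 0.53 ± 0.13 over treated wild type (adjusted p = 0.00544). Farsb read 10.38, 10.66, 10.93 and 11.10 in the mutant and 10.90, 10.35, 10.51 and 10.07 in the antibiotic group. Its mutant arrays were above those of treated wild type, by 0.59 ± 0.21 (adjusted p = 0.0451). The call was lost in 7 of 8 fits without an array (0.48 to 0.63), though both other kept probe sets gave 0.58 and 0.65. Farsa was 0.56 ± 0.16 higher (adjusted p = 0.0169), with 1 mutant array inside the treated wild-type range, and was not called without treated wild-type replicate 2 (0.48). Qars read 10.27, 9.95 and 9.93 untreated, 10.07, 10.43, 10.25 and 10.34 in treated wild type, 10.68, 10.64, 10.68 and 10.80 in the mutant, and 10.60, 10.51, 10.17 and 9.98 in the antibiotic group. The mutant was higher by 0.43 ± 0.14 without overlap (adjusted p = 0.0303), a call lost in 6 of 8 fits without an array. The other kept probe sets of Qars gave 0.26 and 0.46 and were not called.

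Of the cytosolic genes that had risen in treated wild type, Farsa and Farsb were called higher again in the mutant, and the others were not called. Vars differed by 0.30 ± 0.17, Gars by 0.21 ± 0.12, Lars by 0.02 ± 0.12, Hars by -0.17 ± 0.14 and Kars by -0.39 ± 0.15, and none of these was called. Their 95% intervals ran from -0.72 to -0.06 for Kars at the lowest to -0.05 to 0.66 for Vars at the highest. Tars, the threonyl enzyme, differed by 0.30 ± 0.13 (adjusted p = 0.0847). By grouping, 1 of 7 genes of the multisynthetase complex and 6 of 12 others were higher, 4 of 13 ATF4-linked genes and 3 of 6 others, and 2 of 10 class I and 5 of 9 class II genes. Over all genes 13.2% were higher and 17.6% lower in this comparison, and these splits were not tested.

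Cars2, the mitochondrial cysteinyl enzyme, was the 1 synthetase that differed by at least 2-fold here. It read 6.73, 6.28 and 5.92 in untreated wild type, 6.64, 6.42, 6.69 and 6.37 in treated wild type, 5.21, 5.50, 5.54 and 5.52 in the mutant, and 6.80, 6.78, 6.79 and 6.98 in the antibiotic group. The mutant arrays were below all 11 wild-type arrays, treated or not. The difference from treated wild type was -1.09 ± 0.15 (adjusted p = 0.000113), from untreated wild type -0.87 ± 0.16 (adjusted p = 0.000443) and from the antibiotic group -1.39 ± 0.15 (adjusted p = 9.1e-05). There were no untreated mutant livers, and a difference of sequence between the strains under this single kept probe set was not tested. Nars2 differed by -0.76 ± 0.20 (adjusted p = 0.0119), and the mutant arrays were below the treated wild-type ones. Fars2 was 0.74 ± 0.19 higher without overlap (adjusted p = 0.00877), with 0.83 ± 0.24 at its second probe set. Lars2 read 7.06, 7.33, 7.51 and 7.25 in the mutant and 7.50, 7.13, 6.86 and 6.82 in the antibiotic group. Its mutant arrays were above treated wild type by 0.40 ± 0.14 (adjusted p = 0.0482), a call lost in 6 of 8 fits without an array. Hars2 is unsettled, since the probe set used was 0.46 ± 0.25 higher and not called, and the second one was lower at -0.47 ± 0.14 (adjusted p = 0.0208).

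**Figure D4:**
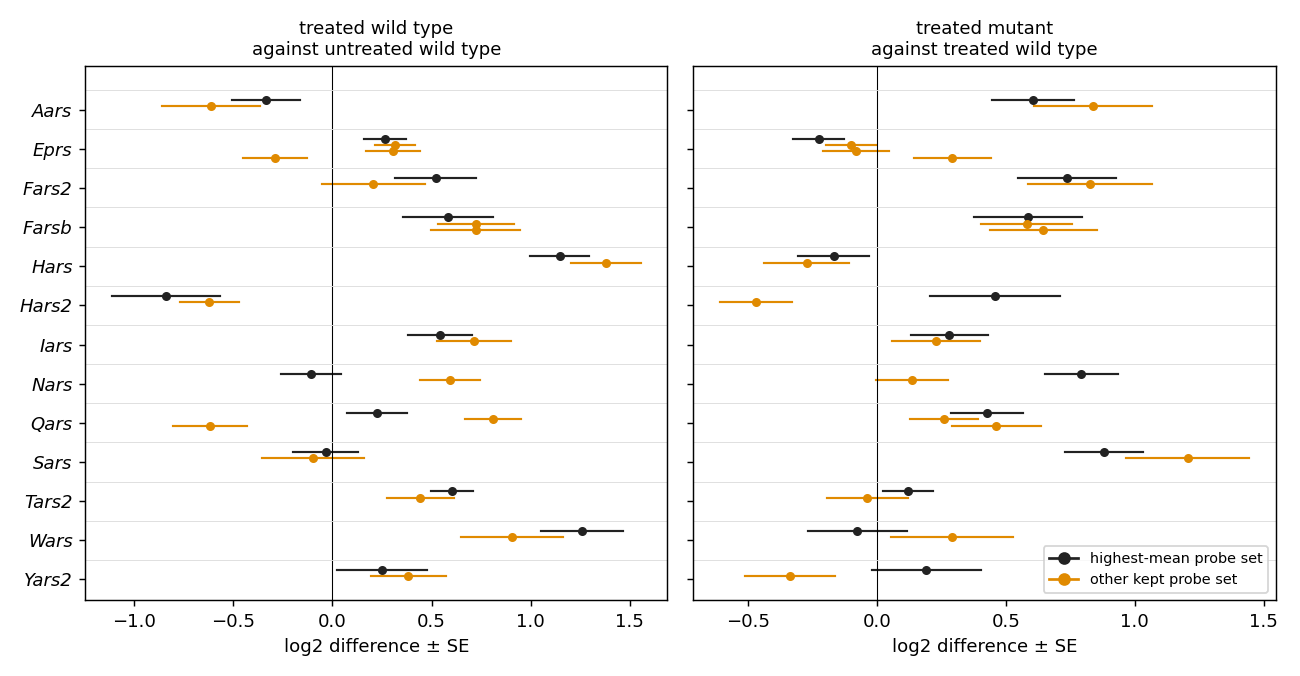
Log2 difference ± SE for every kept probe set of the 13 synthetase genes with more than 1, in treated against untreated wild type (left) and treated mutant against treated wild type (right); black is the probe set used and orange the others. Aars, Fars2, Farsb, Hars, Iars and Sars keep 1 direction within each panel, the probe sets of Eprs, Nars and Qars differ in sign on the left, and those of Eprs, Hars2, Tars2, Wars and Yars2 on the right.

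Genes of the stress pathway known to act on synthetase genes were also measured. Of 24 tested targets of the integrated stress response, 10 were higher and 6 lower in treated wild type, and 10 were higher and 1 lower in the mutant than in treated wild type. The shares of all genes were 35.9% and 26.7% in the first of these comparisons, and 13.2% and 17.6% in the second. Phgdh, the first enzyme of serine synthesis, was 3.66 ± 0.58 higher in treated than in untreated wild type and a further 3.13 ± 0.54 higher in the mutant (adjusted p = 7.77e-05 and 0.000641). Psat1, the next enzyme of that path, rose by 6.10 ± 0.18 with treatment and Mthfd2, of mitochondrial folate metabolism, by 2.91 ± 0.27. In the mutant Nupr1, a stress-induced nuclear protein, was 3.12 ± 0.70 higher and Slc3a2, the heavy chain of amino acid transporters, 1.77 ± 0.29. Trib3 and Chac1, both ATF4 targets, changed direction between the comparisons: -1.32 and -1.23 in treated against untreated wild type, then 1.73 and 1.31 in the mutant. Both comparisons use the treated wild-type arrays, so low values there lower the first and raise the second. Atf4 itself differed by 0.03 and then 0.57, and neither was called. Among 8 genes around the eIF2 kinases, 4 were higher and 0 lower in the mutant, led by Ppp1r15a, which restores eIF2 after stress (1.49 ± 0.28, adjusted p = 0.00117). In treated wild type these 8 had 2 higher and 3 lower calls.

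The other lists were compared in the mutant as well, where 13.2% of all genes were higher and 17.6% lower. Of 32 maturation, modification and export genes 5 were higher and 0 lower. Xpot, the exporter of tRNA from the nucleus, was 0.77 ± 0.10 higher (adjusted p = 8.1e-05). Its difference in treated against untreated wild type, which uses the same treated wild-type arrays, was -0.53. Of 8 scaffold and editing genes, Aarsd1 was lower (-0.69 ± 0.21) and Prorsd1 higher (0.47 ± 0.12). Of 14 mitochondrial translation factors 1 was higher and 2 lower, of 76 mitochondrial ribosomal proteins 1 and 8, and of 6 cytosolic elongation factors 0 and 0, where Eef2k had the largest difference at -0.55.

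The third comparison, the antibiotic group against treated wild type, asks what differed in livers of animals that had drunk antibiotics before the injections. Few synthetases were called: 1 of 19 cytosolic genes higher and 0 lower, and 1 of 12 mitochondrial genes higher and 1 lower. Over all genes 14.0% were called, 4.95% higher and 9.01% lower, so that 35.4% of called genes were higher as deposited, and 45.6% with arrays centred. The arrays did not overlap for 1 cytosolic gene (Vars, higher) and 1 mitochondrial gene (Cars2, higher), neither of which was called, against 6.45% higher and 11.6% lower over all genes. Farsa was 0.57 ± 0.16 higher (adjusted p = 0.0301), Fars2 0.61 ± 0.19 higher (adjusted p = 0.0434), and Nars2 fell by 0.77 ± 0.20 on the log2 scale (adjusted p = 0.0227). At its second probe set Fars2 was 0.45 ± 0.24 higher and was not called (adjusted p = 0.244). The antibiotic arrays of all 3 called genes overlapped those of treated wild type. These calls depend on the fit: 0 of the 3 were made when the 2 groups were fitted alone, and 0 without antibiotic replicate 3 or replicate 4. Leaving out other arrays gave 1 to 4 calls. Sars (0.21 ± 0.15), Nars (0.35 ± 0.14, adjusted p = 0.106) and Aars (0.10 ± 0.16) were not called. Of the stress targets 3 were higher and 1 lower, with Phgdh at 1.76 ± 0.54, Chac1 at 1.01 ± 0.32, Atf5 at 1.00 ± 0.20 and Mthfd2 at -0.91. Ppp1r15a was 0.99 ± 0.28 higher. None of 8 scaffold and editing genes and none of 14 mitochondrial translation factors was called.

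Against the untreated livers, which serve as the shared reference, each treated group had its own count. In the mutant 15 cytosolic genes were higher and 0 lower, where 32.6% of all genes were higher and 21.5% lower. In the antibiotic group 10 were higher and 1, Mars1, was lower (-0.33 ± 0.12, adjusted p = 0.0255), against 34.5% and 24.3%. Farsa, Farsb, Gars, Hars, Iars, Kars, Lars, Rars, Vars and Wars were higher in all 3 treated groups. Eprs was called in treated wild type alone of the 3 groups. The mutant calls included Nars (0.68 ± 0.15), Qars (0.65 ± 0.15), Sars (0.85 ± 0.16), Tars (0.40 ± 0.14) and Yars (0.80 ± 0.14), which were not called in the antibiotic group. The mitochondrial Fars2 and Tars2 were higher and Nars2 lower in all 3. Nars2 differed from untreated livers by -1.62 ± 0.22 in the mutant and -1.63 ± 0.22 in the antibiotic group. Hars2 was lower in treated wild type and in the antibiotic group (-1.24 ± 0.27), and not called in the mutant. Cars2 was lower in the mutant and higher in the antibiotic group (0.53 ± 0.16).

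Set directly against the antibiotic group, the mutant had Sars higher by 0.67 ± 0.15 (adjusted p = 0.0107), Yars by 0.49 ± 0.13 (adjusted p = 0.0201) and Hars2 by 0.86 ± 0.25 (adjusted p = 0.0383). For Hars2 the groups overlapped, with antibiotic replicate 1 at 7.05 and the mutant at 6.87 to 7.10. Its second probe set was below treated wild type in both groups, by -0.47 in the mutant and -0.38 in the antibiotic group. The Hars2 difference is therefore unsettled. Kars was lower in the mutant by -0.52 ± 0.15 (adjusted p = 0.0414), as was Cars2. Over all genes 5.41% were called higher and 6.88% lower in this contrast. Kars read 8.69, 8.48, 8.99 and 8.73 in the mutant and 9.19, 9.02, 9.57 and 9.18 in the antibiotic group, with no overlap.

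Cars and Mars1, the methionyl enzyme, were called in none of the 3 main comparisons, as was Tars. Cars had the widest spread within a group among the cytosolic genes (SD 0.98 in the antibiotic group). It read 4.15, 4.64 and 4.42 untreated, 5.29, 5.03, 5.18 and 4.60 in treated wild type, 5.93, 4.96, 4.99 and 4.97 in the mutant, and 4.24, 4.10, 5.74 and 5.97 in the antibiotic group. The antibiotic arrays split into a low and a high pair. Mars1 stayed between 9.82 and 10.44 on all 15 arrays.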

How the data were processed

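RNA from 15 mouse livers was hybridised to a 1-colour Affymetrix mouse expression array. The deposited values are log2 GCRMA summaries made by the authors, per the submitters' processing notes, which give no version. They were used as deposited, with 0 columns unused. Probe sets were named through the platform annotation, updated with the gene table of assembly GRCm38.p6. Probe sets with 1 symbol were used (34945 of 45101), and 932 with several symbols were left out, 1 of them shared by Aars and another gene. A gene was tested if its highest-mean probe set reached 4 on at least 3 arrays. Of 72 member probe sets 48 were kept.

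The 4 group means were fitted to all 15 arrays with limma 3.58.1 in R 4.3.3 (11 residual degrees of freedom, prior 3.4), with Benjamini-Hochberg adjustment over 9482 genes in each of 6 comparisons. The fit was tested on simulated data. P-values of other probe sets come from a fit over all kept probe sets. Ratios of pairs were compared after the values were seen, with exact permutation tests in scipy 1.17.1. Figures used Python 3.11.15 and matplotlib 3.10.9.

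Values on every array are given for up to 8 called cytosolic and 5 called mitochondrial genes with the largest difference in each main comparison, and for Wars. Values of Cars and of Kars against the antibiotic group were added after they were seen. From other lists up to 3 called genes per comparison are named, and any further ones were chosen after their values were seen. The members and all lists were chosen with earlier results of these data known. Lists are described by counts, medians and the values of named genes, and no list was tested as a whole. The alternatives were other scalings, filters, thresholds, probe set rules, array weights, 2-group fits, another prior, and each array left out. Array data carry no read depth, so precision rests on signal over background and on the number of arrays.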

Additional observations from a re-analysis of the deposited data

Results flagged for a closer look

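In 6 of 93 groups of 4 arrays checked, 1 array stood apart from the other 3 by Dixon's test, a rate that chance gives in about 1 of 20 groups. Aars in treated wild type read 10.77 on replicate 1 against 10.20 to 10.27 on the others. Cars in the mutant read 5.93 on replicate 1 against 4.96 to 4.99. Mutant replicate 1 was also apart for Cars2, at 5.21 against 5.50 to 5.54, and for Tars2, at 7.78 against 7.58 on the others. Cars2 in the antibiotic group read 6.98 on replicate 4 against 6.78 to 6.80. Lars in the mutant read 9.98 on replicate 3 against 9.80 to 9.82. The causes were not tested.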

How the results depend on the processing

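No called member reversed its direction under the 12 alternatives or with an array left out. With every probe set kept, each gene was read at its probe set of smallest adjusted p, so a reversal at another could not show. For Eprs, called higher in treated wild type, another kept probe set gave -0.29 ± 0.16 there and was not called. The remaining kept probe sets of Eprs gave 0.32 ± 0.10 (called higher) and 0.31 ± 0.14 (not called). In the 3 comparisons 4 of 18, 1 of 11 and 0 of 3 calls were made under every alternative that tested the gene (Vars and Wars, of the 4, were not tested with a filter at 6), and 12, 7 and 0 with every array left out. The 2-fold alternative drops any smaller difference by definition. It was the only one to drop Gars, Kars, Lars, Tars2, Nars2 and Aars2 in treated wild type. In the mutant the same holds for Aars, Fars2, Nars, Sars and Yars. In treated against untreated wild type, centring gave 7 cytosolic higher, 2 cytosolic lower and 1 mitochondrial higher call. Quantile normalization, the mean of probe sets, the 2 groups fitted alone and an adjusted p under 0.01 each gave 1 mitochondrial higher call. A filter at 6 gave 3 mitochondrial lower calls and the p under 0.01 gave 2. Cytosolic lower calls were 1 with the mean of probe sets and 2 with every probe set or with array weights. A change of at least 2-fold left 4 calls, all cytosolic higher, and 0 mitochondrial ones. In the mutant comparison mitochondrial higher calls were 1 with no filter, every probe set, a trended robust prior or a p under 0.01, and 4 with array weights, which added 2 cytosolic lower calls. The p under 0.01 left 6 calls, 4 cytosolic higher and 1 mitochondrial lower among them, and 2-fold left 1 (mitochondrial lower) with 0 higher. In the antibiotic comparison the 2 groups alone, a p under 0.01 and 2-fold each gave 0 calls. No filter and array weights gave 0 mitochondrial higher calls, and weights gave 2 cytosolic higher. Leaving out arrays gave 14 to 16, 8 to 11 and 0 to 4 calls in the 3 comparisons. Cytosolic higher calls were then 9 to 11, 5 to 6 and 0 to 2, and cytosolic lower calls 0 to 1, 0 to 2 and 0 to 0. Mitochondrial higher calls were 1 to 2, 1 to 2 and 0 to 1, and mitochondrial lower calls 2 to 5, 2 to 2 and 0 to 1. The causes were not tested. No paired analysis was possible because the labels number the arrays 1 to 15 across the groups, which share no replicate number. Vars, Wars, Yars and Aars2 were close to background, which limits their precision.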
